A study of Mus musculus with 6 samples.

Results

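The respiratory chain and the ATP synthase of the mitochondrial inner membrane are built from subunits that 2 genomes encode. The RNA of these subunits is described here in mouse mesenchymal cells before and after 7 days in osteogenic medium. The subunits were chosen by gene symbol among protein-coding genes: the mitochondrial mt-Nd, mt-Co, mt-Cytb and mt-Atp genes, and the nuclear Nduf, Sdh, Uqcr, Cox and Atp5 genes, without Cox8b. They were 97 of the 55401 genes counted, 13 of them encoded by the mitochondrial genome and 84 by the nucleus. The mitochondrial genes make 7 subunits of complex I, 1 of complex III, 3 of complex IV and 2 of complex V. The nuclear genes were 35 of complex I, 4 of complex II, 8 of complex III, 19 of complex IV (Ndufa4 and Ndufa4l2 among them) and 18 of complex V.

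Complexes I and II pass electrons from NADH and succinate to ubiquinone, complex III passes them on to cytochrome c, and complex IV passes them to oxygen. Complexes I, III and IV pump protons as they do so, and complex V, the ATP synthase, uses the returning protons to make ATP. The mitochondrial genome is transcribed from both of its strands as long RNAs that are cut into single messages, while the nuclear subunits are made in the cytosol and imported, so that a complex needs the products of both genomes. Osteoblasts, the bone-forming cells, are known to use both glycolysis and respiration, and the balance shifts as mesenchymal cells mature.

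The study asked how NFIB, a transcription factor, and MLL1, a histone methyltransferase, act in osteogenic differentiation of C3H10T1/2 cells, a mouse mesenchymal line. RNA was sequenced from 3 lines that each expressed a short hairpin RNA. They held a control hairpin (shControl), an Nfib hairpin (shNFIB) or a hairpin (shMLL1) against Kmt2a, which encodes MLL1. Day 0 cells had no osteogenic agent, and day 7 cells had spent 7 days with dexamethasone at 0.1 µM, ascorbic acid 2-phosphate at 100 µg/ml and β-glycerophosphate at 20 mM. No library came from cells kept for 7 days without these agents, so the agents and the time in culture cannot be told apart. With 1 library for each of the 6 conditions, every p-value below measures only the spread between these samples.

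At days 0 and 7 the libraries held 32662704 and 29086652 counts for shControl, 34774066 and 30406559 for shNFIB, and 30838517 and 21608680 for shMLL1. The shMLL1 library of day 7 was thus the smallest of the 6. Levels are given as CPM, the counts of a gene per 1e+06 counts of the library after scaling by edgeR (TMM, a trimmed mean). Subunit genes are ranked by level per kilobase of exon, counting every exon annotated for the gene. A single transcript can be much shorter, as for Atp5l with 6443 bases of exon and 544 in its transcript. The ranks depend on this choice of length. Markers, isoform pairs and nuclear copies are set side by side in CPM or counts, without correction for length.

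The hairpin targets were lowest in their own lines at both days. Nfib was at 116 CPM in shControl, 34.0 in shNFIB and 68.9 in shMLL1 at day 0, and at 83.3, 8.04 and 72.9 CPM at day 7. Kmt2a was at 74.7 CPM in shControl, 83.3 in shNFIB and 32.5 in shMLL1 at day 0, and at 66.2, 92.8 and 34.9 CPM at day 7. Over both days the log2 fold change against shControl was -2.44 for Nfib in shNFIB (edgeR quasi-likelihood test with Benjamini-Hochberg adjustment, adjusted p = 0.115) and -1.06 for Kmt2a in shMLL1 (adjusted p = 0.154). Neither passed an adjusted p of 0.05, the threshold for a call throughout.

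Of 12 mesenchymal and fibroblast markers, 11 had at least 10 counts in every library, with Fn1 the most abundant and Nt5e at 1 to 6 counts. Their sum was lower at day 7 in each line (19930 and 9432 CPM in shControl, 27292 and 12580 CPM in shNFIB, 13532 and 9911 CPM in shMLL1), with Vim and Fn1 falling and Pdgfra rising. Osteoblast markers summed to 252 CPM in shControl at day 0 and 1503 CPM at day 7, 242 and 269 CPM in shNFIB, and 278 and 349 CPM in shMLL1. Spp1, a bone matrix protein, made up most of these sums. Of the 10 osteoblast markers, 4 were detected at day 0 in each line, and 7 in shControl, 5 in shNFIB and 5 in shMLL1 at day 7, while Ibsp had no count in any library. Alpl had 7 and 111 counts in shControl, 8 and 215 in shNFIB, and 0 and 2 in shMLL1. Adipocyte markers were also higher at day 7, above all in shControl, where they summed to 51.0 CPM at day 0 and 131 CPM at day 7. In shNFIB the adipocyte sum was 61.2 and 92.1 CPM, and in shMLL1 19.1 and 30.4 CPM, with Pparg the most abundant. Of 8 adipocyte markers, 3 were detected at day 0 in each line, and 7, 4 and 5 at day 7 in shControl, shNFIB and shMLL1. Cidec and Plin1, which coat fat droplets, had no count at day 0 and at day 7 had 681 and 472 counts in shControl, 5 and 9 in shNFIB and 17 and 28 in shMLL1, while Adipoq had at most 1 count in any library. Of the brown adipocyte markers only Ppargc1a reached 10 counts, and Ucp1 had at most 1 count. Skeletal muscle markers summed to 3.07 and 0.524 CPM in shControl, 1.89 and 0.267 CPM in shNFIB, and 1.40 and 0.575 CPM in shMLL1 (Acta1 the most abundant, Ckm and Myh1 at 0). Blood and macrophage markers (Cd14 the most abundant; Adgre1 and Tyrobp at 0) summed to 24.2 and 26.1 CPM in shControl, 22.2 and 17.0 CPM in shNFIB, and 26.7 and 18.8 CPM in shMLL1, and of these Cd68 rose at day 7. Endothelial markers (Tek, with Pecam1 at most 19 counts) summed to 17.9 and 2.75 CPM, 24.5 and 4.87 CPM, and 3.49 and 3.62 CPM, and epithelial markers (Cdh1; Epcam and Krt18 at 0) to 9.04 and 1.18 CPM, 5.61 and 0.2002 CPM, and 8.40 and 0.616 CPM. Tek and Cdh1 fell at day 7. The part of these cell type markers in the subunit values was not tested.

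The RNA of the mitochondrial genome took a larger share of every library at day 7, while the share of the nuclear subunits was nearly level in shControl and shNFIB and smaller in shMLL1. In shControl the 13 mitochondrial genes took 1.90% of all counts at day 0 (95% Wilson interval 1.90% to 1.91%) and 7.22% at day 7 (7.21% to 7.23%). In shNFIB they took 2.24% (2.23% to 2.24%) and 4.206% (4.199% to 4.213%). In shMLL1 they took 2.50% (2.50% to 2.51%) and 5.38% (5.37% to 5.39%). All 3 lines were thus low at day 0 and high at day 7, with shControl lowest at day 0 and highest at day 7. The 84 nuclear genes took 1.20% (1.19% to 1.20%) and 1.30% (1.29% to 1.30%) in shControl, and 0.915% (0.912% to 0.918%) and 0.876% (0.873% to 0.880%) in shNFIB. In shMLL1 they took 1.55% (1.55% to 1.56%) and 1.123% (1.118% to 1.127%). The nuclear share was therefore highest in shMLL1 at day 0 and lowest in shNFIB at day 7. Wilson intervals and the exact Clopper-Pearson intervals given with pairs of libraries cover counting error only.

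The ratio of mitochondrial to nuclear subunit counts within a library needs no scaling between libraries. It was 1.59 at day 0 and 5.56 at day 7 in shControl, 2.45 and 4.80 in shNFIB, and 1.62 and 4.79 in shMLL1. Ratios of the 3 day 0 libraries did not overlap with those of day 7. On the log2 scale the day 7 ratio was higher by 1.81 in shControl (95% counting interval 1.80 to 1.81), 0.97 in shNFIB (0.96 to 0.98) and 1.57 in shMLL1 (1.56 to 1.58). The mean difference was 1.45 (SD 0.43, n = 3 lines), and an exact two-sided sign-flip permutation test gave p = 0.25, the smallest p that 3 pairs allow. Leaving out mt-Co1, the most abundant mitochondrial gene, gave 1.85, 0.93 and 1.63 in the 3 lines.

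The terms of the ratio differed in measure by line. The log2 difference in summed CPM of the mitochondrial genes between the days was 1.82 in shControl, 0.85 in shNFIB and 0.83 in shMLL1 (exact sign-flip permutation test, p = 0.25). For the nuclear genes it was 0.02, -0.13 and -0.74 (exact sign-flip permutation test, p = 0.5). In shControl the wider ratio thus lay in the mitochondrial counts, while in shMLL1 the nuclear counts were also lower at day 7. The 2 mitochondrial ribosomal RNAs, which come from the same genome, were higher by 2.26, 2.90 and 0.84. As a reference outside mitochondria, looked at after the subunit values had been seen, the 81 cytosolic ribosomal protein genes were at -0.44, -0.21 and -1.32. In these bulk libraries, fewer cells of a type and less RNA per cell cannot be told apart. The adipocyte and osteoblast marker sums also differed most between the days in shControl, and their part in the mitochondrial counts was not tested.

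**Figure D1:**
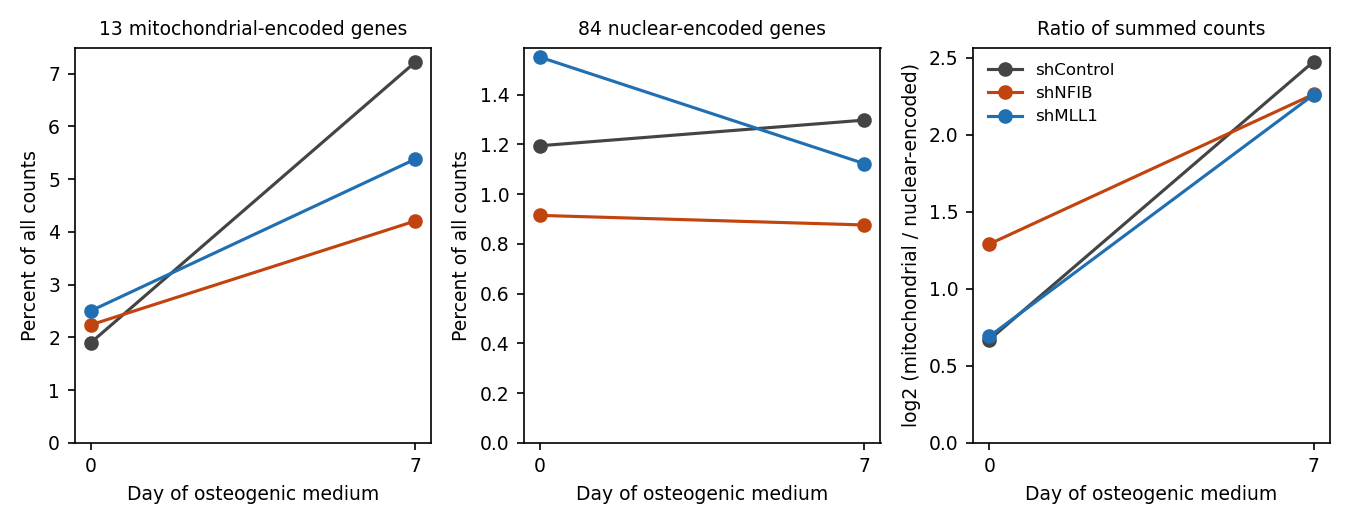
Shares of all counts in the mitochondrial and the nuclear subunits, in percent, and the log2 ratio of their counts, for each of the 6 libraries. The ratio is between 0.67 and 1.29 in the 3 day 0 libraries and between 2.26 and 2.48 in the 3 day 7 libraries.

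Across the 3 lines, with line as a block, 12 of the 13 mitochondrial genes had enough counts to be tested, all but mt-Atp8. Of these, 7 rose at day 7 and none fell by edgeR's quasi-likelihood test, against 16.9% of the 16742 genes tested that were called higher and 16.7% called lower. All 12 log2 fold changes were positive, with a median of 1.23 against -0.0047 over all genes tested. At an unadjusted p under 0.05 there were 11, beside 7873 of the 16742 genes, and DESeq2 called 11, all higher, beside 6343 genes. Without shControl 0 of the 12 were called and their median was 0.91, without shNFIB 6 were called, and without shMLL1 9. Over all genes the calls went from 5624 to 2410, 4893 and 4977 in these fits.

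Complex I, which takes electrons from NADH, has 7 mitochondrial subunits that form much of its proton-pumping membrane arm. mt-Nd6 (ENSMUSG00000064368, chrM:13552-14070 on GRCm38), the only one of the 13 genes on the minus strand, was at 428 CPM at day 0 and 1990 CPM at day 7 in shControl, 544 and 1194 CPM in shNFIB, and 526 and 1410 CPM in shMLL1. Every day 7 library was above every day 0 library. The log2 fold change was 1.59 (standard error 0.31, edgeR adjusted p = 0.00943), the lowest p of the mitochondrial genes. The strand setting of the counting is not given in the sources used here, so RNA of the opposite strand of this stretch cannot be told apart. mt-Nd4 was at 1061 and 4604 CPM in shControl, 1346 and 2849 in shNFIB, and 1548 and 3063 in shMLL1. mt-Nd5 was at 1908 and 6468 CPM, 2357 and 5069 CPM, and 2473 and 5320 CPM in the same order. mt-Nd2 was at 1375 and 5861 CPM, 1894 and 3280 CPM, and 1505 and 3353 CPM. For these genes too the days did not overlap and shControl at day 7 was the highest library. Their log2 fold changes were 1.39, 1.32 and 1.34 (edgeR adjusted p = 0.0226, 0.0228 and 0.0290).

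mt-Nd1, which lies at the junction of the membrane arm with the ubiquinone site, was at 3297 and 11773 CPM in shControl, 3651 and 5259 CPM in shNFIB, and 4138 and 6260 CPM in shMLL1. It was higher at day 7 in each line but did not pass the test (log2 fold change 0.98, standard error 0.41, edgeR adjusted p = 0.0982). Few reads were counted for the short genes mt-Nd3 and mt-Nd4l. mt-Nd3 had 9 and 51 counts in shControl, 11 and 41 in shNFIB, and 7 and 13 in shMLL1, and its log2 fold change of 1.94 passed (edgeR adjusted p = 0.0290). mt-Nd4l had between 11 and 25 counts in every library and did not (0.35, standard error 0.53, edgeR adjusted p = 0.632).

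The single mitochondrial gene of complex III, mt-Cytb, carries the haem groups of the ubiquinol oxidation site. It was at 3269 and 10522 CPM in shControl, 4566 and 7402 CPM in shNFIB, and 4307 and 7356 CPM in shMLL1, so that the days did not overlap. Its log2 fold change of 1.05 (standard error 0.38) did not pass (edgeR adjusted p = 0.0676).

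Complex IV, cytochrome c oxidase, takes its catalytic core from mt-Co1, mt-Co2 and mt-Co3. mt-Co1 (ENSMUSG00000064351, chrM:5328-6872), which holds the site where oxygen is reduced, was at 8063 and 27397 CPM in shControl, 9361 and 17591 CPM in shNFIB, and 12404 and 20915 CPM in shMLL1. It was higher at day 7 in all 3 lines, with a log2 fold change of 1.14 (standard error 0.43) that did not pass (edgeR adjusted p = 0.0773). The gene made up between 39.4% and 46.1% of the counts of the 13 mitochondrial genes in every library and alone took 2.88% of all counts in shControl at day 7. mt-Co2, which receives electrons from cytochrome c, was at 12.5 and 41.2 CPM in shControl, 12.8 and 18.1 CPM in shNFIB, and 15.2 and 22.6 CPM in shMLL1. mt-Co3 was at 6.95 and 22.5 CPM, 7.44 and 10.8 CPM, and 6.03 and 12.1 CPM in the same order. Both rose, with log2 fold changes of 0.93 and 1.08 (edgeR adjusted p = 0.0438 and 0.0276).

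Complex V has mt-Atp6, which forms part of its proton channel, and mt-Atp8. mt-Atp6 had 119 and 348 counts in shControl, 173 and 190 in shNFIB, and 107 and 1001 in shMLL1. At day 7 the shMLL1 library stood above all others, and the shNFIB line hardly differed between its days. The log2 difference between the days was 1.61 in shControl (95% counting interval 1.31 to 1.93), 0.26 in shNFIB (-0.04 to 0.57) and 3.46 in shMLL1 (3.17 to 3.76). Over the 3 lines the log2 fold change was 1.77 (standard error 0.57, edgeR adjusted p = 0.0501). mt-Atp8 had between 3 and 16 counts and was not tested.

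**Figure D2:**
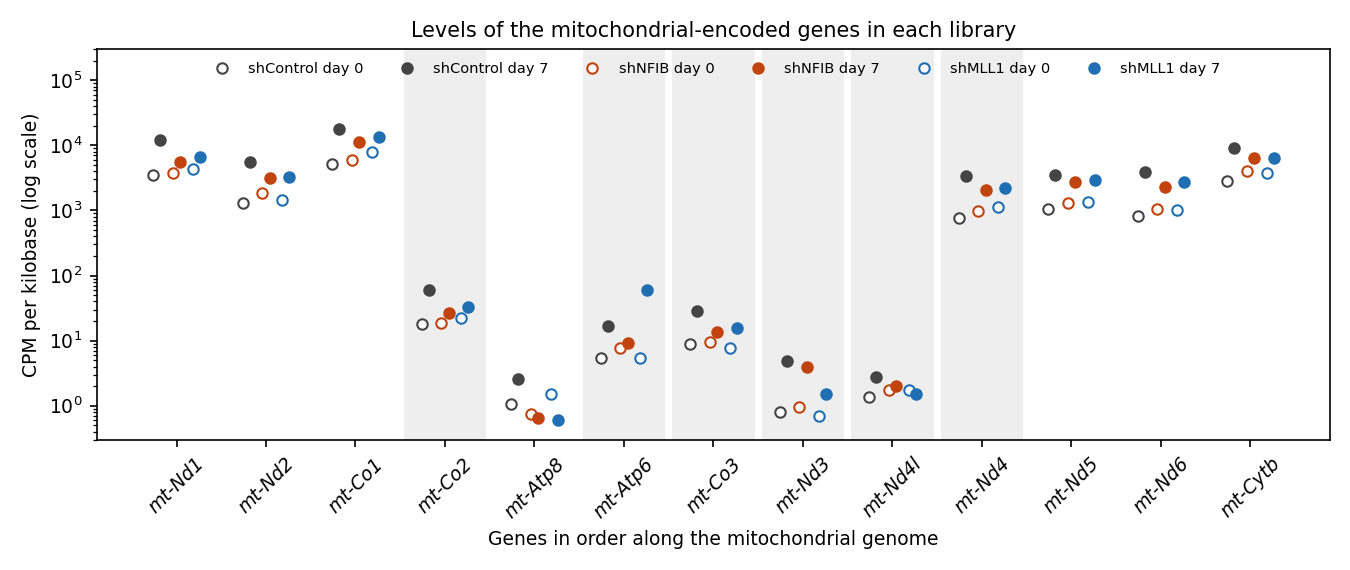
Level of each mitochondrial gene in CPM per kilobase of exon on a log axis, with day 0 as open and day 7 as filled symbols for the 3 lines. Grey bands mark the genes with over 50% of their transcript in a near-identical nuclear copy. mt-Atp6 in shMLL1 at day 7 is at 60.4 CPM per kilobase, against 5.47 to 16.7 in the other libraries.

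The 13 genes fell into a high and a low class of level. Per kilobase of exon, the mean over libraries was 10327 CPM for mt-Co1, 5987 for mt-Nd1, 5452 for mt-Cytb, 2773 for mt-Nd2, 2156 for mt-Nd5, 1957 for mt-Nd6 and 1750 for mt-Nd4. The other genes were far lower, at 29.8 CPM per kilobase for mt-Co2, 17.5 for mt-Atp6, 14.0 for mt-Co3, 2.12 for mt-Nd3, 1.86 for mt-Nd4l and 1.20 for mt-Atp8. In the nuclear genome, chromosome 1 holds annotated copies of a stretch of the mitochondrial genome, and the authors kept only reads with a high mapping quality, which a read that fits both places equally would not have. Transcripts were searched for stretches of at least 100 bases with at least 98% identity to a transcript of another gene. More than 90% of the transcript lay in such a copy for 5 mitochondrial genes, mt-Nd3, mt-Nd4l, mt-Co2, mt-Co3 and mt-Atp6, and 63.6% for mt-Nd4. A further 31.3% of mt-Co1 did so, while none was found for mt-Nd1, mt-Nd2, mt-Nd5, mt-Nd6, mt-Cytb and mt-Atp8. Only annotated transcripts were searched, so a copy that is not annotated would be missed. The 5 genes are all in the low class and their levels are uncertain. For mt-Atp8, also in the low class, no annotated copy was found, but it lies between mt-Co2 and mt-Atp6, whose copies are neighbours on chromosome 1, and its last bases are shared with mt-Atp6. The part of copies in the low levels was not tested. Without all genes that have a copy, the log2 ratio of mitochondrial to nuclear counts was still higher at day 7 by 1.82 in shControl, 0.90 in shNFIB and 1.61 in shMLL1.

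Among nuclear subunits no transcript lay over 90% in a copy, and 4 did so for at least 50%, Ndufs3, Uqcrb, Atp5h and Atp5l. Exon bases were shared with an overlapping gene in 16, for instance 29.98% of Ndufa13 and 28.7% of Ndufb9, and counts of these genes are uncertain to that extent. Stretches in a copy also made up 36.2% of Ndufa12, 38.4% of Uqcr11 and 17.8% of Cox7a2l.

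How little separates a copy from its gene is seen in the stretches that follow, which are shown because they decide whether a read of mt-Nd3 or mt-Co1 can be placed. Over 345 aligned bases, mt-Nd3 and its copy Gm28438 had 1 difference, T3C, and over 483 aligned bases mt-Co1 and its copy Gm29216 had 1, A4T. Positions are counted from 1 at the first base shown, the mitochondrial base is named before the copy's base, and the capital marks it. The stretches are 77 bases of mt-Nd3 at chrM:9459-9535 (plus strand), 77 of Gm28438 at chr1:24613043-24613119 (minus strand), 78 of mt-Co1 at chrM:6390-6467 (plus strand) and 78 of Gm29216 at chr1:24616111-24616188 (minus strand), all on GRCm38.
mt-Nd3: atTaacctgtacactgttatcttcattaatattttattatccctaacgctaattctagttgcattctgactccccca
Gm28438: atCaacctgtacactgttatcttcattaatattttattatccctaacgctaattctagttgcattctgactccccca
mt-Co1: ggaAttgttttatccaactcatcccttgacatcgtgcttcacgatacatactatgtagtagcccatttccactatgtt
Gm29216: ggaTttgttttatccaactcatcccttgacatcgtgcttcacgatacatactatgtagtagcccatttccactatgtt
Gm28438 had 264 and 708 counts in shControl, 286 and 346 in shNFIB, and 230 and 396 in shMLL1. Each line thus had more counts of this copy at day 7, and far more than of mt-Nd3 itself. Gm29216 had 78 and 341 counts in shControl, 108 and 187 in shNFIB, and 135 and 3604 in shMLL1. At day 7 the shMLL1 library was the highest for Gm29216, as it was for mt-Atp6, whereas the copy of mt-Atp6, Gm10925, had 178 and 487, 280 and 261, and 196 and 209 counts. Reads of a gene and of its copy cannot be told apart where the sequences are identical.

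The nuclear subunits did not follow the mitochondrial ones at day 7. Of the 84, 79 were tested, 11 fell and none rose by edgeR's quasi-likelihood test, against 16.7% of all genes called lower and 16.9% called higher. Their median log2 fold change was -0.22, with 25 positive and 54 negative values, against -0.0047 over all genes tested. The share of members called lower, 11 of 79, is near that of all genes. At an unadjusted p under 0.05 there were 23 nuclear members, beside 7873 of all 16742 genes, and DESeq2 called 15 lower and 1 higher, Uqcrh, beside 6343 genes called in all. The 11 were lower at day 7 in each of the 3 lines, but the count depended on each line: without shControl it was 1, without shMLL1 3 and without shNFIB 4, where 2410, 4977 and 4893 of all genes were called, against 5624 with every line. Without shMLL1 the nuclear median was 0.02 and 6 genes were called higher, Atp5l, Cox6c, Cox7b, Ndufa3, Ndufv3 and Uqcrh.

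Scaling mattered for this direction. With scaling by library size alone, the median over all genes moved from -0.0047 to 0.14, and the nuclear median was -0.07 and the mitochondrial median 1.38, so the order of the medians was as before. That scaling made 5403 calls over all genes, of which 60.8% were higher, against 5624 calls and 50.4% with TMM. It left 4 nuclear members called lower and 3 called higher, Ndufa3, Ndufv3 and Uqcrh.

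In complex I, whose nuclear subunits include the redox core and many accessory proteins, 2 of 35 fell, against 16.7% of all genes, and the median was -0.16. Both are accessory subunits. Ndufa9, which sits near the ubiquinone site, was at 88.0 and 53.8 CPM in shControl, 76.3 and 59.5 CPM in shNFIB, and 123 and 52.8 CPM in shMLL1. Ndufa13 was at 103 and 65.2 CPM, 73.4 and 56.0 CPM, and 129 and 51.0 CPM in the same order. Every day 0 library was above every day 7 library for both genes, and shMLL1 had the highest value at day 0 and the lowest at day 7. Their log2 fold changes were -0.76 and -0.79 (edgeR adjusted p = 0.0346 and 0.0359). Ndufb9 and Ndufa2, the most abundant of the complex per kilobase with means of 214 and 139 CPM per kilobase, did not pass. Ndufb9 was at 197 and 234 CPM in shControl, 139 and 149 CPM in shNFIB, and 383 and 219.7 CPM in shMLL1, so only shMLL1 was lower at day 7.

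Complex II is the enzyme that also serves the tricarboxylic acid cycle, and all of its 4 subunits are nuclear. All 4 had negative log2 fold changes with a median of -0.50, and 2 fell, against 16.7% of all genes. Sdha (ENSMUSG00000021577, chr13:74322254-74350280), which binds the flavin and oxidises succinate, was at 264 and 175 CPM in shControl, 294 and 201 CPM in shNFIB, and 182 and 110.4 CPM in shMLL1. It was lower at day 7 in every line, and shMLL1 was the lowest line at both days. Sdhb, the iron-sulphur subunit, was at 104 and 72.7 CPM, 80.8 and 54.0 CPM, and 137 and 60.5 CPM in the same order, and the days did not overlap. Their log2 fold changes were -0.62 (standard error 0.20, edgeR adjusted p = 0.0470) and -0.76 (standard error 0.21, edgeR adjusted p = 0.0300). The membrane anchors Sdhc and Sdhd were at -0.22 and -0.38 and did not pass.

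In complex III 1 of 8 fell, against 16.7% of all genes, and the median was -0.37. Uqcrc1, a core subunit on the matrix side, was at 158 and 104 CPM in shControl, 136 and 94.2 CPM in shNFIB, and 174 and 85.6 CPM in shMLL1. The days did not overlap, and the log2 fold change was -0.72 (edgeR adjusted p = 0.0313). Uqcrh, the hinge protein near cytochrome c, ran the other way, with 180.1 and 305 CPM, 105 and 165 CPM, and 228 and 279 CPM in the same order. It was higher at day 7 in every line but did not pass (0.57, standard error 0.21, edgeR adjusted p = 0.0722). Uqcrq, a small accessory subunit, was lower at day 7 in each line. Another, Uqcr10, was higher at day 7 in shControl and shNFIB and lower in shMLL1. Uqcr10 was at 92.5 and 141 CPM in shControl, 67.6 and 72.4 CPM in shNFIB, and 199.8 and 106 CPM in shMLL1.

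In complex IV 2 of the 15 nuclear subunits tested fell, Cox6a1 and Cox6a2, and the median was -0.13. In complex V 4 of 17 fell, and both counts stand beside 16.7% of all genes. The complex V median was -0.18. Atp5b (ENSMUSG00000025393, chr10:128083273-128090391), the β subunit that carries the catalytic sites, was at 1420 CPM at day 0 and 742 CPM at day 7 in shControl, 1052 and 619.5 CPM in shNFIB, and 1573 and 566 CPM in shMLL1. Every day 0 library was above every day 7 library. The log2 fold change was -1.06 (standard error 0.27, edgeR adjusted p = 0.0249), the largest fall in complex V. Atp5a1, the α subunit of the same catalytic head, was at 826 and 458 CPM, 707 and 463 CPM, and 731 and 359 CPM, also without overlap, and fell by 0.83 on the log2 scale (edgeR adjusted p = 0.0343). The others that fell were Atp5d, of the central stalk, and Atp5g2, which encodes the ring subunit c, with log2 fold changes of -0.77 and -0.69. Atp5h, of the peripheral stalk, was the second most abundant per kilobase, with 253 and 321 CPM, 179 and 236 CPM, and 389 and 285 CPM in the same order. It was higher at day 7 in shControl and shNFIB and lower in shMLL1.

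Within single lines, each with 1 library a day and no replicate check, the day differences of the nuclear subunits were not alike. In shControl 12 of 12 mitochondrial genes were past 2-fold higher at day 7, against 22.0% of all genes, and none past 2-fold lower, against 14.7%. Of its 79 nuclear genes 3 were past 2-fold higher and 2 lower, and the medians were 1.76 for the mitochondrial and 0.06 for the nuclear genes. In shNFIB 4 mitochondrial genes were past 2-fold higher and none lower, against 17.2% and 12.8% of all genes, and of the nuclear genes none was higher and 2 were lower, with medians of 0.74 and -0.04. In shMLL1 6 mitochondrial genes were past 2-fold higher and none lower, against 24.0% and 20.3% of all genes. There 22 of the 79 nuclear genes were past 2-fold lower and none higher, 72 of the 79 were negative, and the medians were 0.99 and -0.71. Over all genes the medians of these pairs were -0.01, 0.01 and -0.01. With scaling by library size the median of all genes in the shMLL1 pair was 0.26, and 16 members were past 2-fold, against 28 with TMM. Whether the day difference itself differed between lines was not tested.

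The nuclear genes past 2-fold higher in shControl were Cox7b, Ndufa3 and Cox7a1. Cox7b, of complex IV, was at 193 and 389 CPM in shControl, 151 and 196 CPM in shNFIB, and 385 and 335 CPM in shMLL1. Its log2 difference was 1.01 in shControl (95% counting interval 0.96 to 1.05), 0.37 in shNFIB (0.32 to 0.43) and -0.20 in shMLL1 (-0.24 to -0.16). Ndufa3, of complex I, was at 37.1 and 75.1 CPM, 29.3 and 41.0 CPM, and 56.8 and 62.4 CPM, with 1.02, 0.48 and 0.14. For both genes the difference was widest in shControl, and in shMLL1 the day 0 level was already above that of the other lines. Among the genes lower in shMLL1, the widest differences besides Cox6a2 and Ndufa4l2 (22 and 5 counts) were in Uqcrq, at 308 and 86.4 CPM (-1.83, interval -1.90 to -1.77), and Ndufa12, at 62.8 and 17.9 CPM (-1.81, -1.96 to -1.66). In shControl Uqcrq was at 143 and 129 CPM and Ndufa12 at 31.8 and 25.6 CPM, differences of -0.16 and -0.31.

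**Figure D3:**
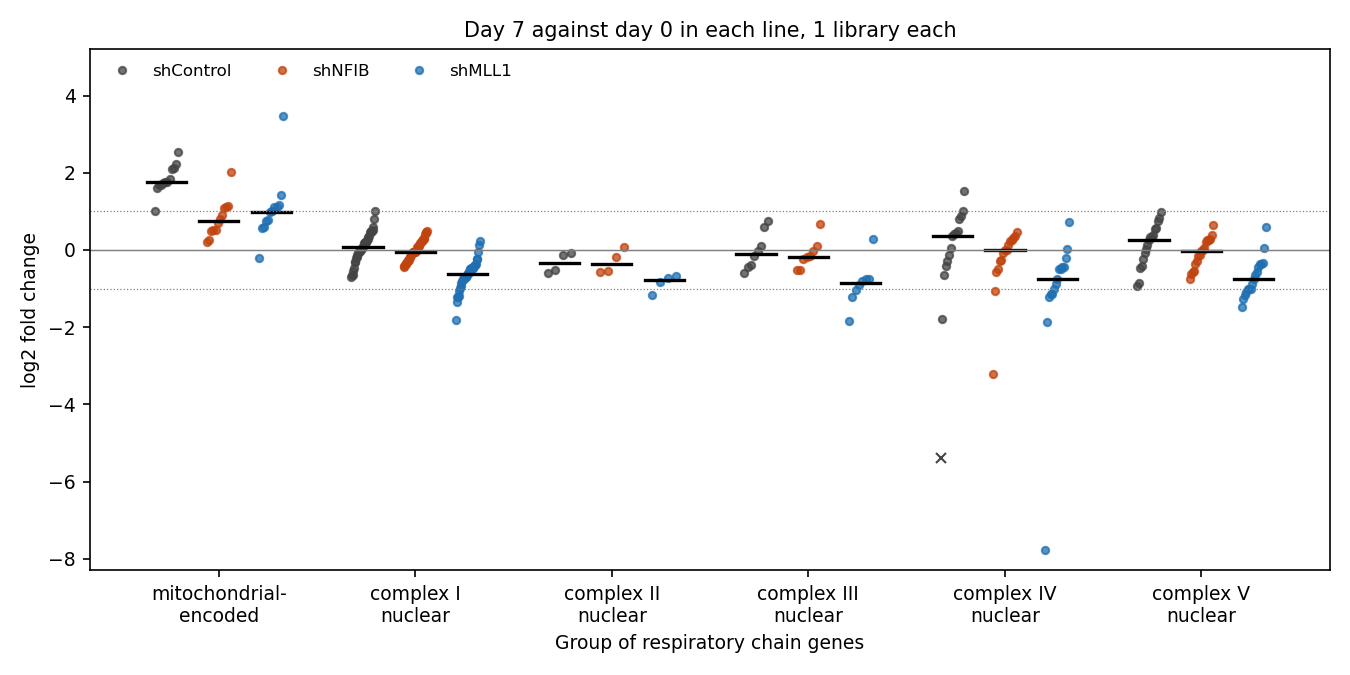
Log2 fold change from day 0 to day 7 of each subunit gene in each line, grouped by genome and complex. Dots are genes, black bars medians, dotted lines mark 2-fold and crosses are bounds against a library with no count; the mitochondrial medians are 1.76, 0.74 and 0.99 and the nuclear medians 0.06, -0.04 and -0.71 in shControl, shNFIB and shMLL1.

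Several subunits of complex IV have isoforms that differ between tissues, and 17 genes of this kind were followed as a list. Of the 13 tested, 2 fell at day 7 and none rose, against 16.7% and 16.9% of all genes, with a median of -0.02. The common isoforms made up nearly all of the level. Cox4i1, the ubiquitous subunit 4, was at 510.5 and 682 CPM in shControl, 343 and 405 CPM in shNFIB, and 788 and 558 CPM in shMLL1, and had the highest mean of the nuclear genes per kilobase with 353 CPM. Its counterpart Cox4i2, known from lung and from low oxygen, had 2 and 4 counts, 2 and 6 counts, and 0 and 21 counts in the same order. Only the shMLL1 library of day 7 was clearly above the floor of 3 counts. There, with the day 0 library set to that floor, Cox4i2 was 7.97-fold higher than at day 0, a value that leaves out counting error.

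Cox6a2, the isoform of heart and skeletal muscle, had 136 counts at day 0 and 0 at day 7 in shControl, 82 and 8 in shNFIB, and 286 and 1 in shMLL1. All 3 lines were low at day 7, and shMLL1 had the most at day 0. In shControl, with the day 7 library set to a floor of 3 counts, Cox6a2 was 5.38 lower on the log2 scale, a value that leaves out counting error. In shNFIB the log2 difference was -3.21 (95% counting interval -4.49 to -2.18). In shMLL1 the ratio was 0.00454 (log2 interval -13.23 to -5.43), from 1 count at day 7. That count is under the floor, which was not applied there, so the size of this difference is uncertain. Cox6a2 fell in the fit over the lines (edgeR adjusted p = 0.00604), and its fitted fold change depends on the prior count. The skeletal muscle marker Acta1 was also lower at day 7, with 67 and 1 counts, 41 and 0 counts, and 18 and 2 counts, and its part in the Cox6a2 counts was not tested. Cox6a1, the isoform of other tissues, was at 195 and 147 CPM, 151 and 101 CPM, and 229 and 104 CPM, and fell less, by 0.71 on the log2 scale (edgeR adjusted p = 0.0455).

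Cox7a1, the muscle form of subunit 7a, had 5 and 14 counts in shControl, 7 and 7 in shNFIB, and 17 and 24 in shMLL1. It was far below Cox7a2, its liver form, which was at 119 and 160.4 CPM, 93.3 and 88.9 CPM, and 229 and 135 CPM. Cox7a2l, which links complexes III and IV, was at 178 and 113 CPM, 139 and 115 CPM, and 151 and 68.0 CPM. It was lower at day 7 in each line and just missed the threshold (-0.69, edgeR adjusted p = 0.0535). Ndufa4l2, known as a gene induced by low oxygen, had 22 and 6 counts, 7 and 3 counts, and 22 and 5 counts, whereas Ndufa4 was at 219 and 399.9 CPM, 172 and 207 CPM, and 372 and 265 CPM. The remaining common genes Cox6b1, Cox6c, Cox7c and Cox8a were between -0.67 and 0.44 and did not pass. Cox6b2 had at most 4 counts, Cox7b2 at most 2, and Cox8c none in any library.

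The catalytic and redox core that the nucleus encodes is 14 genes, most of which bind flavin, iron-sulphur clusters or the substrates. All were tested, 4 fell at day 7 (Sdha, Sdhb, Atp5a1 and Atp5b) and none rose, against 16.7% and 16.9% of all genes, and the median was -0.51. In complex I, Ndufv1, which binds NADH, was at 110.3 and 79.4 CPM in shControl, 80.8 and 64.9 CPM in shNFIB, and 101 and 66.9 CPM in shMLL1 (-0.46, edgeR adjusted p = 0.0852). Ndufs1, the largest iron-sulphur subunit, was at 120.2 and 77.2 CPM, 145 and 119 CPM, and 138 and 81.4 CPM (-0.56, edgeR adjusted p = 0.0618). Both were lower at day 7 in each line and neither passed. Ndufs8 was at -0.64, Ndufs7 at -0.30, Ndufv2 at -0.28 and Ndufs3 at 0.02. Uqcrfs1, the Rieske protein of complex III, was at 110.1 and 80.9 CPM, 99.7 and 88.1 CPM, and 138 and 58.8 CPM (-0.61, edgeR adjusted p = 0.0897).

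Against shControl, most nuclear subunits were lower in shNFIB, 71 of 79 at day 0 and 69 of 79 at day 7. The 12 mitochondrial genes tested were all slightly higher at day 0 and all lower at day 7. edgeR, fitted to both days together, called no member, against 0.113% of all genes called higher and 0.305% called lower. At an unadjusted p under 0.05 there were 9 members, beside 2077 of the 16742 genes, and DESeq2 called 1, Uqcr11, beside 614 genes. Of the 79 nuclear genes 72 were negative, with a median log2 fold change of -0.46, and all 12 mitochondrial genes were negative, with a median of -0.21, against 0.0039 over all genes tested. The mitochondrial median turned to 0.31 without the shControl library of day 7 and to 0.06 without the shNFIB library of day 7. With 1 library left out at a time, the nuclear median ranged from -0.16 without shControl day 7 to -0.66 without shControl day 0. Other libraries entered the estimate of spread: without the shMLL1 library of day 0 there were 6 calls, without that of day 7 5, and with the 4 libraries compared alone 3, Atp5d, Uqcr11 and Uqcrq. Over all genes these fits made 1165, 923 and 593 calls, against 70 with every library.

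Uqcr11, a small subunit of complex III, measured 86.3 CPM with the control hairpin and 44.1 CPM with the Nfib hairpin at day 0, and 93.4 and 39.3 CPM at day 7. In this comparison its adjusted p was the lowest of the members (log2 fold change -1.12, standard error 0.27, edgeR adjusted p = 0.163). Uqcrq was at 143 and 75.8 CPM at day 0 and at 129 and 53.2 CPM at day 7, and Atp5d at 198 and 105 CPM and at 142 and 70.8 CPM. Their log2 fold changes were -1.13 and -0.96 (edgeR adjusted p = 0.326 and 0.229). Each of these genes was lower in shNFIB than in shControl at both days.

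At day 0 the nuclear median of shNFIB against shControl was -0.36 and the mitochondrial median 0.32. No mitochondrial gene was past 2-fold, and of the nuclear genes none was past 2-fold higher, against 6.67% of all genes, and 1 lower, against 7.14%. At day 7 the medians were -0.53 and -0.71. There 3 mitochondrial genes (mt-Nd1, mt-Co2 and mt-Co3) and 6 nuclear genes were past 2-fold lower, against 12.4% of all genes, and 1 nuclear and no mitochondrial gene was past 2-fold higher, against 7.65%. The lowest nuclear genes were Uqcrq, Uqcr11 and Atp5e, with -1.27 (95% counting interval -1.36 to -1.19), -1.25 (-1.35 to -1.15) and -1.17 (-1.23 to -1.11). The gene higher was Cox6a2, at 8 counts against 0. With scaling by library size the median of all genes at day 7 was -0.11, against -0.02 with TMM, and 16 members were past 2-fold, against 10. The log2 ratio of mitochondrial to nuclear counts in shNFIB differed from that in shControl by 0.62 at day 0 (0.61 to 0.63) and by -0.21 at day 7 (-0.22 to -0.20).

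In shMLL1 most nuclear subunits were higher than in shControl at day 0 (73 of 79) and lower at day 7 (72 of 78). Their median over both days was small. Over both days edgeR called no member, against 0.0119% of all genes called higher and 0.0179% called lower. Differences that turn with the day count as spread in this fit, so it could hardly call them. At an unadjusted p under 0.05 there was 1 member, beside 1540 of the 16742 genes, and DESeq2 called 0, beside 410 genes. That member was Sdha, with 264 and 182 CPM in shControl and shMLL1 at day 0 and 175 and 110.4 CPM at day 7 (log2 fold change -0.60, standard error 0.24, edgeR adjusted p = 0.519). The nuclear median was 0.12, with 58 positive and 21 negative values, and the mitochondrial median -0.20, against 0.02 over all genes. Single libraries decide these signs: the nuclear median was -0.24 without shMLL1 day 0 and -0.12 without shControl day 0, and the mitochondrial median was 0.34 without shControl day 7. Without the shMLL1 library of day 0, mt-Atp6 was the only member called, beside 378 genes in all, against 5 with every library. The shControl libraries of these comparisons are those that shNFIB was compared with.

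At day 0, 73 of the 79 nuclear genes were higher in shMLL1 than in shControl, with a median of 0.50. Of these 4 were past 2-fold higher, against 11.0% of all genes, and none lower, against 8.59%, and no mitochondrial gene was past 2-fold in either direction, with a median of 0.31. The 4 were Cox7a1, Cox6a2, Uqcr10 and Uqcrq. Uqcrq had 143 and 308 CPM in shControl and shMLL1 (log2 difference 1.10, interval 1.05 to 1.16), and Uqcr10 at 92.5 and 199.8 CPM (1.11, 1.05 to 1.18). The cytosolic ribosomal protein genes also took the largest share of any library there, 9.04% of all counts, against 6.11% in shControl at day 0. At day 7 the nuclear median was -0.28 and the mitochondrial median -0.70. At that day 1 mitochondrial gene (mt-Atp6) and 1 nuclear gene (Cox7a1) were past 2-fold higher, against 7.38% of all genes. Past 2-fold lower were 1 mitochondrial gene (mt-Nd3, at 13 against 51 counts) and no nuclear gene, against 6.03%. The log2 ratio of mitochondrial to nuclear counts differed from shControl by 0.02 at day 0 (0.01 to 0.03) and by -0.22 at day 7 (-0.22 to -0.21). The day 0 value turned to -0.10 without mt-Co1 and to -0.12 without the genes that have a nuclear copy.

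**Figure D4:**
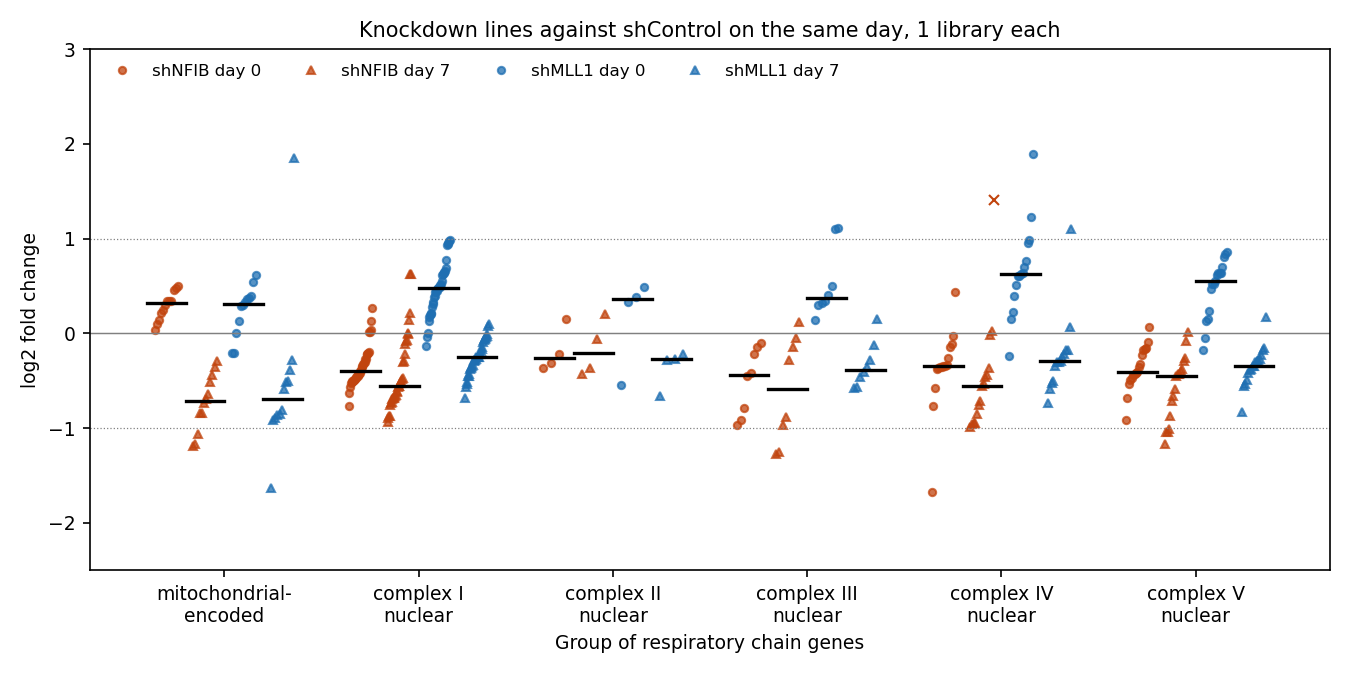
Log2 fold change of each subunit gene in shNFIB and in shMLL1 against shControl, by genome and complex, with day 0 as circles and day 7 as triangles. Nuclear medians are -0.36 and -0.53 in shNFIB and 0.50 and -0.28 in shMLL1 at days 0 and 7.

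By complex, the nuclear medians of shNFIB against shControl at day 0 were -0.39 in complex I, -0.26 in II, -0.44 in III, -0.35 in IV and -0.41 in V. At day 7 they were -0.56, -0.21, -0.58, -0.55 and -0.44. Complex II was nearest to 0 at both days. For shMLL1 the day 0 medians were 0.48, 0.36, 0.37, 0.63 and 0.55 and those of day 7 -0.25, -0.27, -0.38, -0.29 and -0.35, so that every complex was on the positive side at day 0 and on the negative side at day 7.

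Related genes outside the symbol rule were read as lists, whose counts of calls at day 7 stand beside 16.9% of all genes called higher and 16.7% called lower. In a list of respiratory genes outside the rule 22 were tested, 2 rose and 5 fell, with a median of -0.45. That list also held Aox1, the cytosolic aldehyde oxidase, which is no part of the chain and is 1 of the 2 that rose. Aox1 was at 8.54 and 154 CPM in shControl, 38.2 and 285 CPM in shNFIB, and 17.6 and 157 CPM in shMLL1 (3.40, edgeR adjusted p = 5.74e-04). Coq10b, which handles ubiquinone, was at 34.9 and 14.3 CPM, 48.0 and 20.8 CPM, and 49.1 and 11.2 CPM (-1.54, edgeR adjusted p = 0.00476). Both separated the days without overlap. Coq8a, of ubiquinone synthesis, rose by 1.16 and Gpd2, the mitochondrial glycerol phosphate dehydrogenase, fell by 1.23 on the log2 scale.

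Of the 46 tested assembly factors 3 rose and 4 fell, with a median of -0.08. Sdhaf4 and Lyrm7, which help to assemble complexes II and III, had log2 fold changes of 0.85 and 1.20, and Cox10 and Coa7, which serve complex IV, -1.12 and -1.09. Of 35 genes of mitochondrial transcription, RNA processing and DNA maintenance 3 rose and 3 fell, with a median of 0.08. Mterf1a, a terminator of mitochondrial transcription, and Dguok, a nucleoside kinase, had 0.84 and 0.66, and Tfb1m, which methylates the small mitochondrial ribosomal RNA, and Top1mt, the mitochondrial topoisomerase, -1.05 and -1.30. Tfam, which packages the mitochondrial genome and starts its transcription and was picked after its values were seen, was at 55.0 and 46.1 CPM, 43.2 and 40.8 CPM, and 84.5 and 43.6 CPM and was not called (-0.43, edgeR adjusted p = 0.172). Of 78 mitochondrial ribosomal protein genes 1 rose and 7 fell, with a median of -0.37. Mrps6 was at 146 and 503 CPM in shControl, 142 and 277 CPM in shNFIB, and 159 and 398 CPM in shMLL1 (1.36, edgeR adjusted p = 0.00719), while Mrpl54 and Mrps28 were at -0.86 and -0.83.

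Among 14 tested regulators of respiratory genes 3 rose and 1 fell, with a median of -0.24. Ppargc1a, a coactivator known to drive mitochondrial biogenesis, had 414 and 1349 counts in shControl, 66 and 903 in shNFIB, and 424 and 791 in shMLL1. It was higher at day 7 in each line, and lowest in shNFIB at day 0. It rose, with a fitted log2 fold change of 2.196 (standard error 0.50, edgeR adjusted p = 0.0166). Perm1, a muscle regulator of the same programme, had 9 and 49 counts, 4 and 12 counts, and 39 and 75 counts (1.74, edgeR adjusted p = 0.0311). Hif1a, the low-oxygen factor, was at 186 and 91.1 CPM in shControl, and at 227 and 138 CPM in shNFIB, was lower at day 7 in shMLL1 too, and fell by 0.91 on the log2 scale (edgeR adjusted p = 0.0140). Of 21 genes of the tricarboxylic acid cycle and pyruvate entry 1 rose and 5 fell, with a median of -0.42. Cs, citrate synthase, was at 334 and 145 CPM, 284 and 161 CPM, and 285 and 99.2 CPM (-1.18, edgeR adjusted p = 0.00912), and Mdh2 was at -0.96. Pcx, pyruvate carboxylase, was at 62.7 and 178 CPM, 85.8 and 236 CPM, and 43.8 and 119 CPM and rose by 1.47. In the comparisons of the knockdown lines over both days no gene of these lists was called.

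The promoters of the nuclear subunits are known for binding sites of NRF1, of ETS factors such as GABPA and of YY1. The window from 250 bases before to 50 after the start of each gene, from RefSeq on GRCm38.p6, was searched on both strands for GCGCANGCG (NRF1), CCGGAAG (ETS) and AAGATGGCG (YY1), counting matches that overlap. A window was found for 67 of 83 nuclear subunits, with the gene model of Atp5o that had no count left out. At least 1 motif was in 35 of the 67 (52.2%), against 16.5% of 27025 genes. The NRF1 motif was in 20 (29.9%, against 7.03% of all promoters), the ETS motif in 16 (23.9%, against 9.93%) and the YY1 motif in 7 (10.4%, against 1.64%). Of the 11 genes that fell at day 7, 9 had a window, and 6 of these held a motif, 4 that of NRF1. A match is a description of letters, not of binding, which was not analysed here. A motif was in 16 of 31 windows in complex I, 3 of 3 in complex II, 3 of 5 in complex III, 3 of 13 in complex IV and 10 of 15 in complex V.

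The windows of Sdha, Uqcrc1 and Sdhb are printed because these genes fell at day 7 and show different arrangements: 3 separate NRF1 matches, 3 NRF1 matches of which a pair overlap, and 1 ETS match. Windows with 3 NRF1 matches were uncommon, and 35 of the 67 held any motif. Capitals mark the matches, in either orientation. On GRCm38.p6 they lie at chr13:74350191-74350490 (minus strand), chr9:108936398-108936697 (plus strand) and chr4:140961021-140961320 (plus strand).
Sdha: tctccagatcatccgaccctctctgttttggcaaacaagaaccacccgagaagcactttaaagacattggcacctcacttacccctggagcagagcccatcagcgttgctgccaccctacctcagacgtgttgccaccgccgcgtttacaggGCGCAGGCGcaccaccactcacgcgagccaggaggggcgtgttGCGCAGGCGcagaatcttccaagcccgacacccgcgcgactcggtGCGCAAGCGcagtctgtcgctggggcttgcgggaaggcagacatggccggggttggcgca
Uqcrc1: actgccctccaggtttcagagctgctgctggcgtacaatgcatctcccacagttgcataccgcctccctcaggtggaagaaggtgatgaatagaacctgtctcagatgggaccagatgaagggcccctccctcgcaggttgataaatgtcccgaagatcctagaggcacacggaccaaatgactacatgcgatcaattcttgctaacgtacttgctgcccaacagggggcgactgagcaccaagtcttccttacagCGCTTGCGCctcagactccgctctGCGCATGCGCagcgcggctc
Sdhb: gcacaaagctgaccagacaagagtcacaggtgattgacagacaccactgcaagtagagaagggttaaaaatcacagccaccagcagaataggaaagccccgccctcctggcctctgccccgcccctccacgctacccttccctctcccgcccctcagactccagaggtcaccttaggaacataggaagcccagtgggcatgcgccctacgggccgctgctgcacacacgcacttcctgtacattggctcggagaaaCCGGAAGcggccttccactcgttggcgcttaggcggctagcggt
By contrast, no match was found in the window of Atp5b, which fell most in complex V.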

How the data were processed

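Raw read counts per gene were used as deposited by the authors. Before that, paired reads were trimmed (Trimmomatic 0.39) and placed on the GRCm38 (mm10) genome by HISAT2 2.2.1, and the authors kept reads of high mapping quality with SAMtools 1.12, removed PCR duplicates and counted with HTSeq 0.11.1. The strand setting and the annotation release are not given in the sources used here. GENCODE M21 placed 55141 of the 55401 genes. Genes passing edgeR's expression filter were tested with edgeR 4.0.16 (TMM scaling, line and day as terms, 2 residual degrees of freedom, prior count 0.125) in R 4.3.3, with DESeq2 1.42.0 as the alternative. Line pairs the libraries of both days, and deviations correlated within lines by 0.424 (shControl), 0.423 (shNFIB) and 0.269 (shMLL1). Intervals and figures used Python 3.11.15, pandas 2.3.3, scipy 1.17.1 and matplotlib 3.10.9. The procedure was tested on simulated data.

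Members and gene lists were chosen with earlier results of these data known, and the cytosolic ribosomal protein set after seeing the data. Named genes are all mitochondrial members, the isoform and core lists, the pair most abundant per kilobase in each complex, those called or past 2-fold with the largest changes (up to 3 in each direction), and up to 2 in each direction from other lists. Ndufa9, Ndufa13, Ndufv3, Uqcrb, Uqcrc1, Atp5d, Atp5g2, Atp5l and Tfam fall outside that rule and were chosen after their values were seen. The value of 1 named gene is not reported here.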

Additional observations from a re-analysis of the deposited data

Results flagged for a closer look

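Some genes went in opposite directions in a pair of lines, each by at least 1.5-fold with a counting interval that leaves out no change. Each rests on 1 library per condition, and the difference between the lines was not tested. At day 7 mt-Atp6 was higher in shMLL1 than in shControl (log2 fold change 1.85, 95% counting interval 1.68 to 2.03, with 1001 against 348 counts) and lower in shNFIB (-0.84, -1.11 to -0.59, with 190 counts). At day 0 Cox6a2 was at 1.23 (0.93 to 1.53) in shMLL1 against shControl and at -0.77 (-1.18 to -0.36) in shNFIB, Uqcrq at 1.10 (1.05 to 1.16) and -0.92 (-0.99 to -0.85), and Atp5e at 0.84 (0.78 to 0.89) and -0.68 (-0.75 to -0.62). Between the days, Uqcr10 was higher at day 7 in shControl (0.61, 0.54 to 0.68) and lower in shMLL1 (-0.91, -0.98 to -0.85).

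Outside the subunits, Perm1 at day 7 was at 0.94 (0.40 to 1.49) in shMLL1 against shControl and at -1.99 (-3.05 to -1.07) in shNFIB, with 75, 49 and 12 counts in shMLL1, shControl and shNFIB. Alpl at day 7 was at 0.98 (0.64 to 1.33) in shNFIB, and in shMLL1 the ratio to shControl was 0.0238 (log2 -5.40, interval -8.53 to -3.58), with 2 against 111 counts. The 2 counts are under the floor of 3 counts, which was not applied, so the size of this ratio is uncertain.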

How the results depend on the processing

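The day 7 minus day 0 difference of the mitochondrial to nuclear ratio was positive in each line under each alternative, while the shMLL1 minus shControl ratio at day 0 turned from 0.02 to -0.10 without mt-Co1, -0.12 without genes with a copy and -0.16 by medians. Medians of the knockdown comparisons over both days also changed sign: the mitochondrial median of shNFIB went from -0.21 to 0.31 without shControl day 7 and 0.06 without shNFIB day 7, that of shMLL1 from -0.20 to 0.34 without shControl day 7, and the nuclear median of shMLL1 from 0.12 to -0.24 without shMLL1 day 0 and -0.12 without shControl day 0. Of the 18 members called between the days, 8 also had a fold change over 2. Mitochondrial genes called higher were 7, and 11 with DESeq2 or with no low-count filter. Nuclear genes called lower were 11, and 15 with DESeq2, 13 with no low-count filter, 12 with DESeq2 size factors, 9 with the mitochondrial genome left out of the scaling, 4 with library size alone, 6 with no replicate block (the line term that pairs the days), 5 with protein-coding genes alone and 2 with a fold change over 2. Nuclear genes called higher were 0 with edgeR, and 1 with DESeq2, 3 with library size alone and 1 with protein-coding genes alone. Calls over all genes, in both directions, were 5624 in the main fit. They were 6343 with DESeq2, 6270 with no low-count filter, 5638 with DESeq2 size factors and 5620 with the mitochondrial genome left out. With library size alone they were 5403, with no replicate block 3999, with protein-coding genes alone 4166 and with a fold change over 2 4112. For shNFIB over both days edgeR called 0 members, and 1 was called with DESeq2, 1 with no low-count filter and 3 with only the 4 libraries compared. Over all genes these fits made 70, 614, 688 and 593 calls in the same order. Leaving out 1 line at a time gave 1 to 18 members called between the days, 0 to 9 mitochondrial higher, 1 to 4 nuclear lower and 0 to 6 nuclear higher, with the lowest counts mostly without shControl. Leaving out 1 library gave 0 to 6 member calls for shNFIB and 0 to 1 for shMLL1, while calls over all genes went from 70 to as many as 1165 and from 5 to as many as 720. At 1.5-fold in place of 2-fold, the members past the threshold went from 17 to 34 (shControl between days), 6 to 13 (shNFIB), 28 to 60 (shMLL1), 1 to 9 and 10 to 45 (shNFIB against shControl at days 0 and 7), and 4 to 33 and 3 to 14 (shMLL1 against shControl). With library size alone they were 16 for shMLL1 between days, and 2 and 16 for shNFIB at days 0 and 7. Shares of all genes at 1.5-fold or with library size alone are not given here. These counts therefore do not set the members against all genes. Values under the alternatives were followed for the 12 mitochondrial genes tested and the 11 nuclear genes called lower between the days. Of these values, 169 kept their side of the threshold, 17 passed it newly and 67 no longer passed it. As 18 of these genes were called in the main fit, most could only keep or lose their call. The cause was not tested. Counts were few for mt-Nd3, mt-Nd4l, mt-Atp8 and the low isoforms, and the part of depth in this was not tested.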

Other observations

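In the shMLL1 library of day 7, the nuclear copy Gm29216 of mt-Co1 had 3604 counts and mt-Atp6 had 1001 counts, against at most 341 and 348 counts in any other library. The mitochondrial ribosomal RNAs took 0.104% and 0.536% of all counts at days 0 and 7 in shControl, 0.0728% and 0.569% in shNFIB, and 0.146% and 0.317% in shMLL1.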
